A study of Homo sapiens with 14 samples.

Results

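Imprinted genes are expressed mainly from the copy inherited from a single parent. The 10 imprinted genes described here were chosen by name, with earlier results of these data in view, out of 63677 gene IDs in each bulk RNA-seq table. DLK1, MEG3, RTL1 and DIO3 lie in the same imprinted domain on chromosome 14. IGF2, H19, CDKN1C and PHLDA2 lie in neighbouring domains on chromosome 11, PEG10 lies on chromosome 7 and PEG3 on chromosome 19. Their values across the bulk groups belong to the choice of the genes and are given as a description, with no p-value. Where it is said whether they were called, the rule is the one used for all genes, and nothing is read from those calls.

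All samples came from H9, an established line of human embryonic stem cells (hESC). The 12 bulk libraries comprised 2 of undifferentiated hESC in mTSER Plus on matrigel, 3 of endoderm expressing dCAS9-KRAB without sgRNA (control endoderm), 3 of endoderm expressing dCAS9-KRAB with the sgRNA against LTR5, and 2 each of foregut without (control foregut) and with that sgRNA. dCAS9-KRAB is a Cas9 that cannot cut, fused to a KRAB repressor domain, and LTR5 is the long terminal repeat of HERVK. Endoderm was made with Activin at 100 ng/ml for 3 days and the GSK-3 inhibitor CHIR-99021 at 5 μM on the first day and 0.5 μM on the next, and foregut with 3 further days. Gastruloids were aggregated from 800 cells per well after 3 μM CHIR-99021, collected at 72 h, and read as single nuclei from 1 preparation. The hESC label does not state dCAS9-KRAB, so endoderm and hESC may differ in that construct too, and each sgRNA arm was a separately transduced culture selected with puromycin.

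The titles of the foregut samples go against their status entries, which read hESC for the control arm and endoderm without sgRNA for the sgRNA arm, and the titles were followed. TTR lay between 1495 and 1989 CPM in the foregut libraries and at 0 in every other library. NANOG was at or below 0.0725 CPM there. Gene reads per library ranged from 11583063 to 37152434, so 3 reads, taken as the floor of a gene at 0, were worth 0.077 to 0.252 CPM. At equal depth the foregut libraries held 14845 to 17566 genes with a read against 18974 to 19958 in the others. The 2 sgRNA foregut libraries correlated least (0.931 on the log2 scale), and 0.956 was reached by the control foregut pair against 0.968 or more elsewhere. The labels do not say that replicates were separate cultures, so errors and p-values measure the spread between these libraries. Reads do not show the parental copy, and in bulk samples fewer cells of a type and less RNA per cell cannot be told apart.

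In the chromosome 14 domain, DLK1, RTL1 and DIO3 are known to be made from the paternal copy, and the non-coding RNAs MEG3, MEG8 and MEG9 with a long array of miRNAs and snoRNAs from the maternal copy. On chromosome 11, the growth factor IGF2 is paternal and the non-coding RNA H19 maternal, under a shared control region. CDKN1C, which inhibits cyclin-dependent kinases, and PHLDA2, which restrains placental growth, are maternal genes of the adjoining domain controlled through the non-coding RNA KCNQ1OT1. PEG10 is a paternal gene derived from a retrotransposon, as RTL1 is, and PEG3 is a paternal zinc finger gene.

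RefSeq promoters, from 250 bases before to 50 bases after the start, were held for 4 of the 10 genes, and are printed because they are the places where the gastruloid peaks described further on can be set against sequence. They are 5′ to 3′ on the strand of the gene, on GRCh38.p14, with every CpG, the dinucleotide that carries imprinting methylation, in capitals. DLK1, IGF2, PEG10, PEG3, CDKN1C and PHLDA2 are named only.
DIO3 promoter, chr14:101561245-101561544, plus strand: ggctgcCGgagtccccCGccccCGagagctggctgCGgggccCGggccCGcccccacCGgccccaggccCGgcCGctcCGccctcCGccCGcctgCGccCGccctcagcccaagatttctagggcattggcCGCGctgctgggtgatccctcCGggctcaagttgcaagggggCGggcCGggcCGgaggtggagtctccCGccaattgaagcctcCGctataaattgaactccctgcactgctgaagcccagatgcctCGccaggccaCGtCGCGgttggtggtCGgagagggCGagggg
MEG3 promoter, chr14:100825858-100826157, plus strand: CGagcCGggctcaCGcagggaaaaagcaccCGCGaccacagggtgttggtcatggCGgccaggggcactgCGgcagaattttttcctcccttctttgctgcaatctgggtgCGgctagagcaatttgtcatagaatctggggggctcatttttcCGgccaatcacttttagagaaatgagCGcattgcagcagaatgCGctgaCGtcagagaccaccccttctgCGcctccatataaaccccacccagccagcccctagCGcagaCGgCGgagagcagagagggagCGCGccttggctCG
RTL1 promoter, chr14:100903673-100903972, minus strand: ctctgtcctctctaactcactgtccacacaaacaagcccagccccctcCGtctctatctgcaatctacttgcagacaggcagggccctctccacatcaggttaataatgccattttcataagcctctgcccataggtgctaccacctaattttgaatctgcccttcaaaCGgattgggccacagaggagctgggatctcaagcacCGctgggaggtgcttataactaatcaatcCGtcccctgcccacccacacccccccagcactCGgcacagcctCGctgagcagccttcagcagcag
H19 promoter, chr11:2001217-2001516, minus strand: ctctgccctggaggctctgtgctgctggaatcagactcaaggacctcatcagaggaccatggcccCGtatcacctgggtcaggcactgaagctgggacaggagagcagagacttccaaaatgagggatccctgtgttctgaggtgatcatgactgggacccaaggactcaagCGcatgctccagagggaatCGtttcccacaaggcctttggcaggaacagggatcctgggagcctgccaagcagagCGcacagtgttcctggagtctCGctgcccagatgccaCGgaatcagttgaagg
The DIO3 promoter held 28 CpG and 73.0% G or C, and 73.8% of 35116 promoters of the same length held fewer CpG. The MEG3 promoter held 19 CpG, and RTL1 and H19 held 6 each, against a median of 14. TATAAA was found in DIO3 and MEG3 (in 11.5% of all promoters), CCAAT in DIO3, MEG3 and RTL1 (34.6%) and GGGCGG in DIO3 alone of the 4 (45.0%). Both strands were searched and none of these motifs contains another.

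DIO3, the deiodinase that inactivates thyroid hormones, went from no read in hESC to the highest level per length of the 10 genes in endoderm, and was lower again in foregut. It lies at chr14:102026476-102029789 on GRCh37, plus strand. Both hESC libraries held 0 reads. The control endoderm libraries held 213, 161 and 151 CPM (175 ± 33.4, SD, n = 3). With the sgRNA, endoderm held 174, 129 and 159 CPM. Control foregut held 21.98 and 24.5 CPM and foregut with the sgRNA 14.3 and 15.5 CPM. The 3 endoderm libraries of either arm thus lay above every foregut library, the endoderm arms overlapped, and the foregut arms did not. Against a floor of 3 reads per hESC library, DIO3 was at least 1380-fold higher in control endoderm and at least 184-fold higher in control foregut, and it fell by 2.91 ± 0.25 (log2, SE) from control endoderm to control foregut. CPM are counts scaled to library size, here with TMM factors over the 12 libraries.

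DLK1, a transmembrane protein related to Notch ligands, rose at each step instead. It lies at chr14:101192042-101204561. The hESC libraries held 2.12 and 1.23 CPM, control endoderm 21.0, 7.87 and 8.88 CPM, and endoderm with the sgRNA 23.3, 9.71 and 11.2 CPM. Control foregut held 61.7 and 67.0 CPM and foregut with the sgRNA 63.8 and 58.5 CPM. Stages did not overlap and arms within a stage did. The fitted difference was 2.94 ± 0.44 from hESC to control endoderm (2.35 without control endoderm replicate 1, the highest of the 3) and 2.35 ± 0.40 from there to control foregut. DIO3 therefore stood at 10.1 to 20.4 times the CPM of DLK1 in control endoderm and at 0.357 and 0.366 times in control foregut.

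RTL1 was seen in endoderm only among these stages, apart from 1 read in 1 hESC library. It lies at chr14:101346090-101370059 on the minus strand, and 35.7% of its exon bases are shared with genes of the opposite strand. Control endoderm held 3.14, 3.96 and 3.75 CPM and endoderm with the sgRNA 3.96, 2.53 and 4.20 CPM, so that the arms overlapped. All 4 foregut libraries held 0 reads. Against a floor of 3 reads per control foregut library, control endoderm stood at least 41.5-fold higher. That bound covers counting alone. Foregut libraries of 1 arm could differ by more, as for ZNF215 with 81 and 0 reads in control foregut. Whether reads were counted by strand is not given in the sources used here, so reads from RTL1 and from transcripts opposite to it cannot be told apart.

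MEG3 stayed near the floor in every stage. It lies at chr14:101245747-101327368, plus strand. Over 12 libraries 70 reads fell in it, none in hESC, 2 to 6 reads per control endoderm library, and 12 and 18 in control foregut (0.390 and 0.462 CPM). MEG8 and MEG9 held no read in any bulk library. Of 105 miRNA and snoRNA genes between DLK1 and DIO3, none held a read. The bulk libraries were made with an mRNA kit per the study's methods, so a count of 0 does not show that these small RNAs were absent. DIO3OS, the antisense RNA beside DIO3, rose into endoderm too, from 2 reads over both hESC libraries to 3.84, 2.30 and 2.63 CPM in control endoderm (adjusted p = 5.32e-06, edgeR). It held 4.71 and 6.75 CPM in control foregut, above each control endoderm library, though the difference was not called (0.97 ± 0.39, adjusted p = 0.0863, edgeR). Exons of DIO3OS cover 6.5% of the DIO3 exon bases on the other strand.

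**Figure D1:**
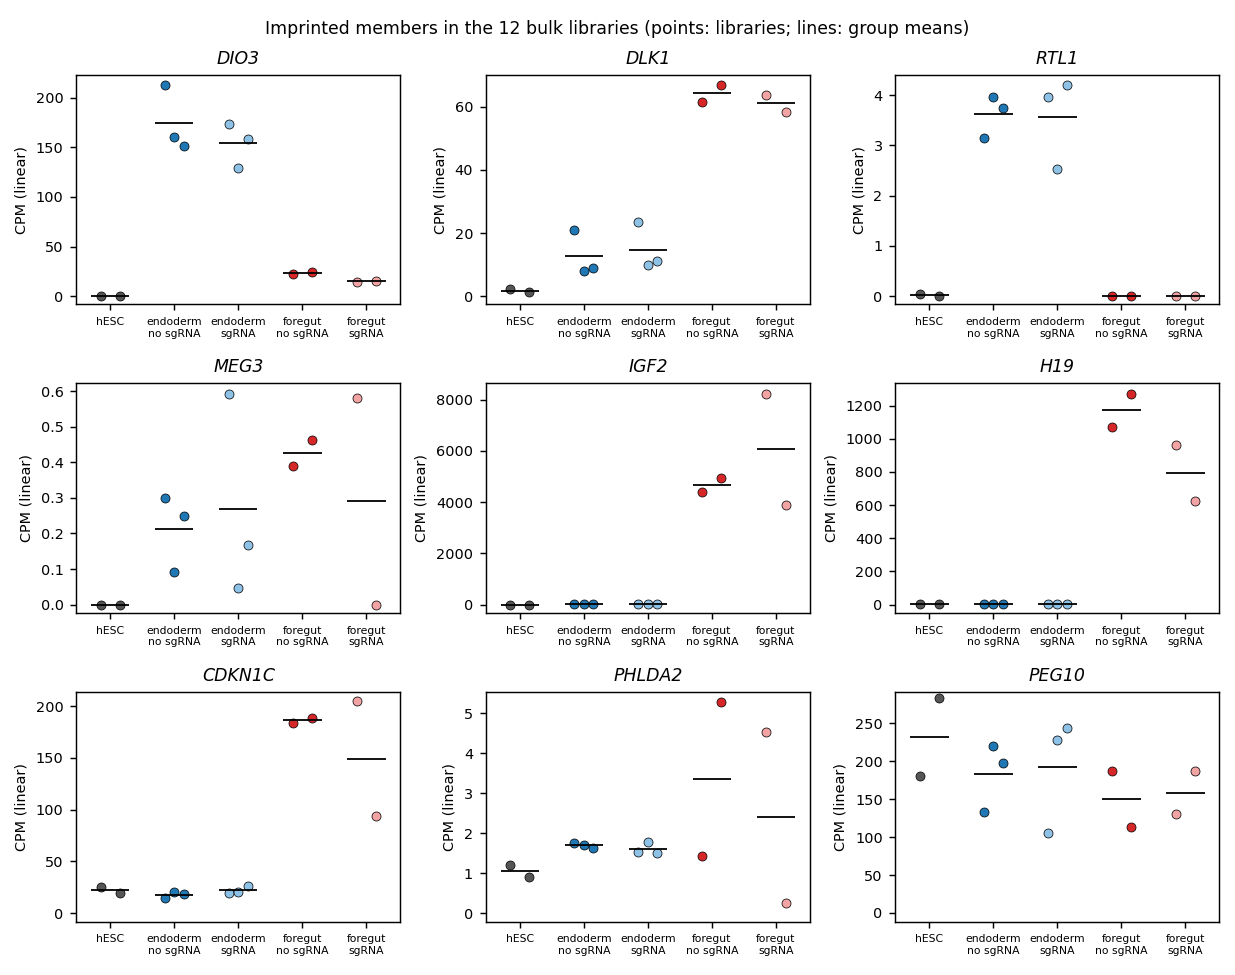
Library values of 9 of the 10 genes (PEG3 held no read) in CPM on linear axes, with 1 panel per gene, 1 point per library and a line at each group mean. DIO3 stands at 151 to 213 CPM in control endoderm and 21.98 to 24.5 CPM in control foregut, whereas IGF2, H19 and CDKN1C are high in foregut alone.

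By the rule used for all genes (adjusted p under 0.05 and a fold over 2, edgeR), 5 of the 9 tested were called between control endoderm and hESC, 4 higher and 1 lower, against 26% of 20818 genes tested. Between control foregut and control endoderm 6 of 9 were called, 4 higher and 2 lower, against 29% of 21466 genes. Between control foregut and hESC 5 of 8 were called, all higher, against 32.7% of 21191 genes, and 8 were called without control foregut replicate 1. Since the genes were chosen with these contrasts known, nothing is read from these shares.

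Transposable elements (TEs) inside the domain were transcribed in endoderm too. Between the start of DLK1 and the end of DIO3 (chr14:101192042-102029789, 837.7 kb on GRCh37), 24 integrants outside exons could be tested between control endoderm and hESC, and 5 were called, all higher, against 3.77% of 31450 integrants over the genome. All integrants of the stretch together held 9 reads in hESC and 1986 in control endoderm, all but 1 of the 24 had no hESC read and so passed the filter on low counts through endoderm alone, and nothing is read from the count or its direction. This stretch was looked at because of DIO3, with its values known. The 5 integrants all lie between chr14:101758118 and chr14:101777584 and overlap no annotated gene. The longest was an LTR7–HERVH-int–LTR7 provirus of 5993 bases that starts 254.9 kb before DIO3 (chr14:101771592-101777584). It held 0 reads in both hESC libraries and 11.5, 8.98 and 12.8 CPM in control endoderm, at least 87.6-fold more. HERVH is an endogenous retrovirus known for its transcription in pluripotent cells, and this copy had none in hESC here. A THE1B–THE1B-int–THE1B element of 2274 bases (chr14:101760958-101763231) held 0 reads in hESC and 17.5, 13.6 and 18.2 CPM in control endoderm, at least 130-fold more. L1ME3Cz, LTR8 and MER44A copies beside them held means of 2.13, 1.68 and 0.650 CPM against 0 in hESC, with bounds of 16.9-fold, 13.3-fold and 5.13-fold.

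In foregut most of this stretch held few reads or none, apart from 2.45 CPM of the L1ME3Cz copy in 1 sgRNA library. The provirus held 0 reads in control foregut and 0.399 and 0.131 CPM with the sgRNA, and the THE1B element 0.422 and 0 CPM in control foregut. Summed over all integrants outside exons between DLK1 and DIO3, the libraries held 0.346 and 0.0411 CPM in hESC, 36.4, 28.4 and 39.9 CPM in control endoderm, 110, 62.5 and 63.8 CPM in endoderm with the sgRNA and 2.13 to 4.37 CPM in foregut. Only reads with a single place in the genome were counted, so integrants with near-identical copies are read less fully.

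**Figure D2:**
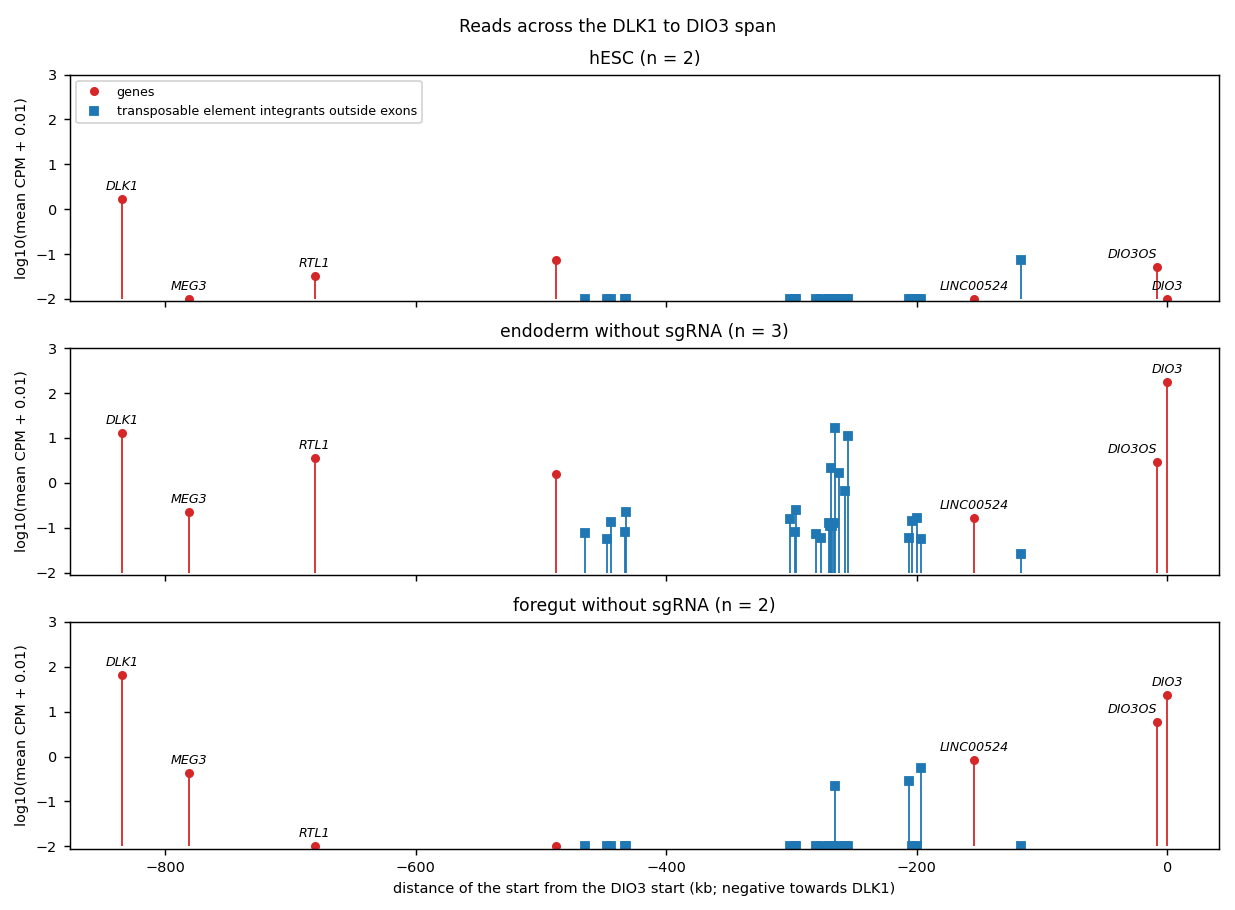
Mean level of genes (red) and TE integrants outside exons (blue) by distance of their start from the DIO3 start, in kb, with log10(mean CPM + 0.01) on the vertical axis and 1 panel each for hESC, control endoderm and control foregut. The group of integrants around 260 kb before DIO3 stands high in the endoderm panel only, and DLK1 is highest in foregut.

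IGF2 and H19 stayed low through endoderm and became the highest of the 10 genes in foregut. IGF2 lies at chr11:2150342-2179621 on the minus strand of GRCh37. The hESC libraries held 0.432 and 1.15 CPM, control endoderm 7.58, 5.02 and 6.69 CPM, and control foregut 4404 and 4959 CPM. The difference was 3.04 ± 0.41 (log2, SE) from hESC to control endoderm (2.51 and 3.90 without either hESC library) and 9.51 ± 0.26 from control endoderm to control foregut. Of the IGF2 exon bases 43.2% are shared with genes on the same strand, INS-IGF2 among them, and how reads in shared bases were assigned is not given in the sources used here.

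H19 moved the other way at the first step. It lies at chr11:2016396-2025782 and shares no exon base. It held 3.20 and 2.51 CPM in hESC, 0.997, 1.01 and 1.44 CPM in control endoderm, and 1071 and 1272 CPM in control foregut. The fall into endoderm was 1.29 ± 0.36 in log2 with groups that did not overlap, and it was no longer called without hESC replicate 1. The rise from there to foregut was 10.00 ± 0.27. IGF2 stood at 0.135 and 0.459 times the CPM of H19 in hESC, 4.65 to 7.60 times in control endoderm, and 4.11 and 3.90 times in control foregut.

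IGF2-AS, the antisense RNA at IGF2, rose into foregut as well, from a mean of 0.0627 CPM in control endoderm to 27.9 and 51.2 CPM (log2 9.07 ± 0.58, adjusted p = 1.18e-05, edgeR). Without strand, its reads and those of IGF2 on the other strand cannot be told apart.

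CDKN1C overlapped between hESC and endoderm and rose into foregut. It lies at chr11:2904443-2907005. It held 24.8 and 19.8 CPM in hESC, 15, 20.2 and 18.4 CPM in control endoderm, which overlap, and 184 and 189 CPM in control foregut. The rise into foregut was 3.38 ± 0.22 in log2. PHLDA2, at chr11:2949503-2950650, was low throughout. It held 1.21 and 0.905 CPM in hESC, 1.75, 1.70 and 1.63 CPM in control endoderm, and 1.43 and 5.28 CPM in control foregut, whose libraries were far apart. It was called in foregut against endoderm only without control foregut replicate 1 (log2 1.62 in place of 0.99). KCNQ1OT1, of the same domain, fell into endoderm (1.69 and 1.07 CPM to 0.499, 0.276 and 0.25 CPM; log2 -1.95 ± 0.51, adjusted p = 0.00661) and rose into foregut (3.28 and 1.64 CPM; 2.82 ± 0.65, adjusted p = 0.00966, edgeR). Its fall into endoderm was not called without hESC replicate 1 (-1.59). SLC22A18, a transporter gene between CDKN1C and PHLDA2, rose into endoderm from 3.07 and 1.19 CPM to between 8.08 and 8.69 CPM (2.00 ± 0.36, adjusted p = 0.000377). KCNQ1 was not called in either step.

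PEG10 was well expressed at every stage. It lies at chr7:94285637-94299007, plus strand. It held 181 and 283 CPM in hESC, 133, 220 and 197 CPM in control endoderm, and 188 and 114 CPM in control foregut. All 5 groups overlapped, and the fitted differences were -0.31 ± 0.23 into endoderm and -0.29 ± 0.29 from there into foregut. Its neighbour SGCE, which shares 3.3% of the PEG10 exon bases, fell from 16.6 to 26.1 CPM in control endoderm to 5.88 and 13.6 CPM in control foregut (log2 -1.15 ± 0.39, adjusted p = 0.0489, edgeR), a call lost without any 1 control endoderm library or control foregut replicate 1 (-1.27 to -0.69). TFPI2, further along chromosome 7, rose at both steps, with means of 5.74, 14.3 and 47.2 CPM (1.35 ± 0.35, adjusted p = 0.00682, and 1.72 ± 0.38, adjusted p = 0.00805), and PPP1R9A was called in neither. The TFPI2 rise into endoderm was not called without control endoderm replicate 1 (0.80) or without hESC replicate 1 or 2 (1.46 and 1.23).

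PEG3, at chr19:57321445-57352096, held 0 reads in all 12 libraries, as did ZIM2 and MIMT1. Of its exon bases 50.9% are shared with ZIM2 and an overlapping gene without a symbol (12.9% on the same strand), so a count of 0 there also depends on how shared reads were assigned.

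Compared per length, as RPKM (reads per kilobase of merged exons, scaled as CPM are), the order of levels among these genes differed by stage. In hESC PEG10 stood highest at 34.7 ± 10.8 RPKM, above CDKN1C at 9.0 ± 1.43. In control endoderm DIO3 stood at 83.5 ± 15.9 RPKM, PEG10 at 27.4 ± 6.73, CDKN1C at 7.20 ± 1.07 and DLK1 at 2.40 ± 1.40, and no library of one of these overlapped the next. In control foregut IGF2 stood at 655 ± 54.9, H19 at 339 ± 41.2, CDKN1C at 75.2 ± 1.30, PEG10 at 22.5 ± 7.80, DLK1 at 12.3 ± 0.72 and DIO3 at 11.1 ± 0.86 RPKM, and the gap between the lower DLK1 library (11.75) and the higher DIO3 library (11.71) was smaller than the spread of either gene.

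Genes whose log2(CPM + 1) followed each member most closely over the 12 libraries were taken from 14854 genes, as a description, since the libraries share stages and scaling. For DIO3 they were CYP26A1, which clears retinoic acid, NTN4 and the endoderm factor SOX17 (Pearson r 0.991, 0.989 and 0.989). FOXQ1, CD48 and FGF17 came nearest to RTL1 (0.993 to 0.997). For H19 they were NR2F6, SPATA17 and the WNT antagonist SFRP5 (0.996 to 0.998), and for IGF2 ZNF703, RFX2 and CETN2 (0.995 to 0.998). DLK1 was nearest to LRRC27, PRSS1 and PSME1 (0.981 to 0.984) and CDKN1C to MB, SLC39A5 and SYTL3 (0.990 to 0.991). PEG10 and PHLDA2 had no match as close, with HNRNPU at 0.909 and PRSS27 at 0.957 as their nearest.

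Marker genes of other cell types moved with these stages. Of all genes tested, 26% were called between control endoderm and hESC, and 29% between control foregut and control endoderm. The counts of called markers below are to be set against these shares. Of 8 endoderm markers, 8 were called higher in control endoderm than in hESC, with summed levels of 5418 to 5949 CPM against 28.9 and 43.1 CPM, and SOX17, GATA4 and GATA6 were at 0 in hESC. POU5F1 was still at 652 to 826 CPM in control endoderm. Of 9 mesoderm and mesenchyme markers tested, 6 were also called higher in control endoderm (summed level 184.5 to 408 CPM against 76.9 and 85.2 CPM), TBXT and PDGFRA among them. Of 7 trophoblast and amnion markers tested, 4 were higher and 1 lower (34.6 to 50.8 CPM against 11.0 and 15.5 CPM), while PSG3 and XAGE2 were at 0 in every library. In control foregut the foregut markers summed to 2534 and 2964 CPM, the mesoderm list to 340 and 314 CPM, with COL1A1 at 246 and 234 CPM, and the trophoblast list to 78.2 and 125 CPM, with KRT7 at 37.5 and 89.2 CPM. Against control endoderm, 4 of 10 mesoderm markers were called higher and 5 lower, and 4 of 9 trophoblast markers higher and 2 lower. The part of these other cell types in the levels of the imprinted genes was not tested.

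The sgRNA against LTR5, designed on the LTR5B consensus per the study's methods, was set against controls at each stage, to ask what LTR5 copies do for transcription there. LTR5 reads, summed over 1166 integrants of its 4 subfamilies, were 15.4, 16.9 and 14.5 CPM in control endoderm and 11.9, 12.8 and 15.5 CPM with the sgRNA, which overlap, and 23.6 and 19.96 CPM against 18.1 and 13.5 CPM in foregut, which do not. The subfamilies differed within that sum. LTR5B (368 integrants) held 2.14, 2.26 and 1.62 CPM in control endoderm and 1.12, 1.72 and 2.02 CPM with the sgRNA, which overlap, and 7.37 and 6.08 CPM against 3.37 and 2.19 CPM in foregut, which do not. LTR5_Hs (552 integrants) held 11.1, 12.9 and 11.1 CPM against 8.57, 9.27 and 11.5 CPM in endoderm and 8.73 and 8.31 CPM against 4.64 and 8.17 CPM in foregut. LTR5A (219 integrants) overlapped in foregut, at 7.53 and 5.57 CPM against 10.1 and 3.19 CPM. None of the 10 genes starts within 100 kb of an LTR5 integrant. The nearest was 153.7 kb from PEG3, and DLK1 and DIO3 lay 412.9 and 850.1 kb from theirs, against a median of 823.8 kb over 20162 protein-coding genes, 11.7% of which lie within 100 kb.

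In endoderm, 0 of 9 members tested were called between the arms, against 0.0343% of 20407 genes (7 genes; 1056 at an unadjusted p under 0.05). IGF2 alone had arms that did not overlap, with 17.0, 9.56 and 9.24 CPM with the sgRNA against 5.02 to 7.58 CPM without (log2 0.91 ± 0.28, SE). The share of all genes with arms apart is not given here, so nothing is read from this. H19 held 3.49, 0.861 and 1.51 CPM with the sgRNA, and its highest library was the one highest in IGF2, sgRNA replicate 1. That library also held 23.3 CPM of DLK1, the highest of its arm. In the same arm HAND1 stood at 36.2 to 52.3 CPM against 11.7 to 25.1 CPM (log2 1.45 ± 0.28) and FOXF1 at 2.53 to 5.41 CPM against 0.599 to 1.25 CPM, neither called, and 0 genes of the mesoderm and trophoblast lists were called by edgeR (9 and 8 tested, of which 2 and 1 had an unadjusted p under 0.05). The mesoderm list summed to 176.5 to 359 CPM with and 184.5 to 408 CPM without the sgRNA, and the trophoblast list to 62.5 to 87.0 CPM against 34.6 to 50.8 CPM. Their part in the IGF2 levels was not tested.

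Of the TE integrants between DLK1 and DIO3, 0 of 30 tested were called between the endoderm arms, against 0.0254% of 23589 integrants (6 of the 30, and 700 of all, had an unadjusted p under 0.05). Their median log2 difference was 0.86 with the sgRNA against 0.19 over all integrants. The stretch was looked at because of DIO3, and many of the 30 lie side by side and rest on few reads. Nothing is therefore read from these counts or from the median. The LTR7–HERVH provirus held 45.5, 21.6 and 22.5 CPM with the sgRNA against 11.5, 8.98 and 12.8 CPM without, and these arms did not overlap (log2 1.44 ± 0.39, adjusted p = 0.357, edgeR). The THE1B element held 53.1, 30.7 and 27.1 CPM against 17.5, 13.6 and 18.2 CPM (1.19 ± 0.38, adjusted p = 0.635). Neither was called. The share of all integrants with arms apart is not given here, so nothing is read from the lack of overlap. DIO3 in the same libraries differed by -0.16 ± 0.19.

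In foregut, 0 of 8 members tested were called between the arms, against 0.165% of 20044 genes (33 genes; 699 at an unadjusted p under 0.05). H19 (960 and 626 CPM with the sgRNA against 1071 and 1272 CPM) and DIO3 were lower with the sgRNA in groups that did not overlap, by 0.57 ± 0.28 and 0.65 ± 0.44 in log2. With 2 libraries per arm, values often lie apart without a difference. The share of all genes with arms apart is not given here, so nothing is read from the lack of overlap. IGF2 held 8235 and 3889 CPM with the sgRNA, on either side of the control libraries, and its difference was -0.27 without sgRNA replicate 1 and 0.81 without sgRNA replicate 2. CDKN1C held 205 and 93.7 CPM with the sgRNA, DLK1 63.8 and 58.5 CPM and PHLDA2 4.53 and 0.262 CPM, each with arms that overlapped. IGF2 stood at 8.58 and 6.21 times H19 with the sgRNA against 4.11 and 3.90 times without. Of 9 foregut markers, AFP and PDX1 were called lower with the sgRNA. AFP differed within the control arm, at 187 and 4.82 CPM, and held 0.0363 and 0 CPM with the sgRNA, and PDX1 held 2.79 and 7.73 CPM against 27.0 and 24.7 CPM. The part of these in the H19 and DIO3 levels was not tested.

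The difference of the sgRNA effect between foregut and endoderm was called for 0 of the 9 genes tested (PEG3 was not), against 0.194% of 22708 genes (44 genes; 1870 at an unadjusted p under 0.05). It was -1.36 ± 0.57 for H19, -0.56 ± 0.46 for IGF2 and -0.50 ± 0.32 for DIO3 in log2, foregut minus endoderm. HAND1, of the trophoblast and amnion list, was called there (adjusted p = 0.0277, edgeR), with 0.325 and 0.949 CPM in control foregut and 0 reads in both sgRNA foregut libraries against the higher level with the sgRNA in endoderm given above. Its fitted size rests on a group at 0 and is not given, and its part in the levels of the imprinted genes was not tested.

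Other imprinted genes moved in both directions as stages changed. Of 49 found in the tables, 38 were tested between control endoderm and hESC, and 9 rose, 9 fell and 20 did not pass, against 26% of all genes tested called in either direction (edgeR, adjusted p over all genes; median log2 0.03 against 0.05 over all genes). The count was 10 in place of 18 without hESC replicate 1. CALCR, the calcitonin receptor gene on chromosome 7 near PEG10, rose from 0.216 and 0.0822 CPM to 65.5, 33.0 and 28.8 CPM (8.14 ± 0.53, adjusted p = 1.29e-08). WT1, a transcription factor gene, rose from 2 reads over both hESC libraries to 0.847, 1.29 and 1.44 CPM (adjusted p = 0.000312, edgeR). Among the genes that fell were ATP10A (4.93 to 0.386 CPM; -3.68 ± 0.42, adjusted p = 5.29e-06), NNAT, a neuronal membrane protein (68.8 to 12.0 CPM; -2.49 ± 0.27, adjusted p = 3.18e-06), and PWAR6, a non-coding RNA of the Prader-Willi region (61.7 to 14.5 CPM; -2.06 ± 0.19, adjusted p = 6.66e-07).

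Into foregut, 39 were tested against control endoderm, and 9 rose, 9 fell and 21 did not pass, against 29% of all genes tested (median 0.24 against -0.09). NNAT rose to 86.6 and 158 CPM (3.35 ± 0.38, adjusted p = 0.000227), where hESC held 70.6 and 67.0 CPM, and CPA4, a carboxypeptidase gene, rose from 1 read over the control endoderm libraries to 0.812 and 2.59 CPM (adjusted p = 0.00421, edgeR). CALCR and WT1 held 0 reads in both control foregut libraries, as RTL1 did, though CALCR held 2.84 CPM in foregut sgRNA replicate 2. PLAGL1, a zinc finger growth suppressor, fell from 2.28 to 0.162 CPM (-3.84 ± 1.15, adjusted p = 0.0301), not called without control endoderm replicate 1 (-3.34). Against hESC, 8 rose and 8 fell of 39 tested, against 32.7% of all genes tested, and 26 were called without control foregut replicate 1. With the sgRNA 0 of 36 were called in endoderm (0 at an unadjusted p under 0.05) and 0 of 37 in foregut (3 at an unadjusted p, and 5 called without sgRNA replicate 1). DESeq2 and limma called 0 in both.

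**Figure D3:**
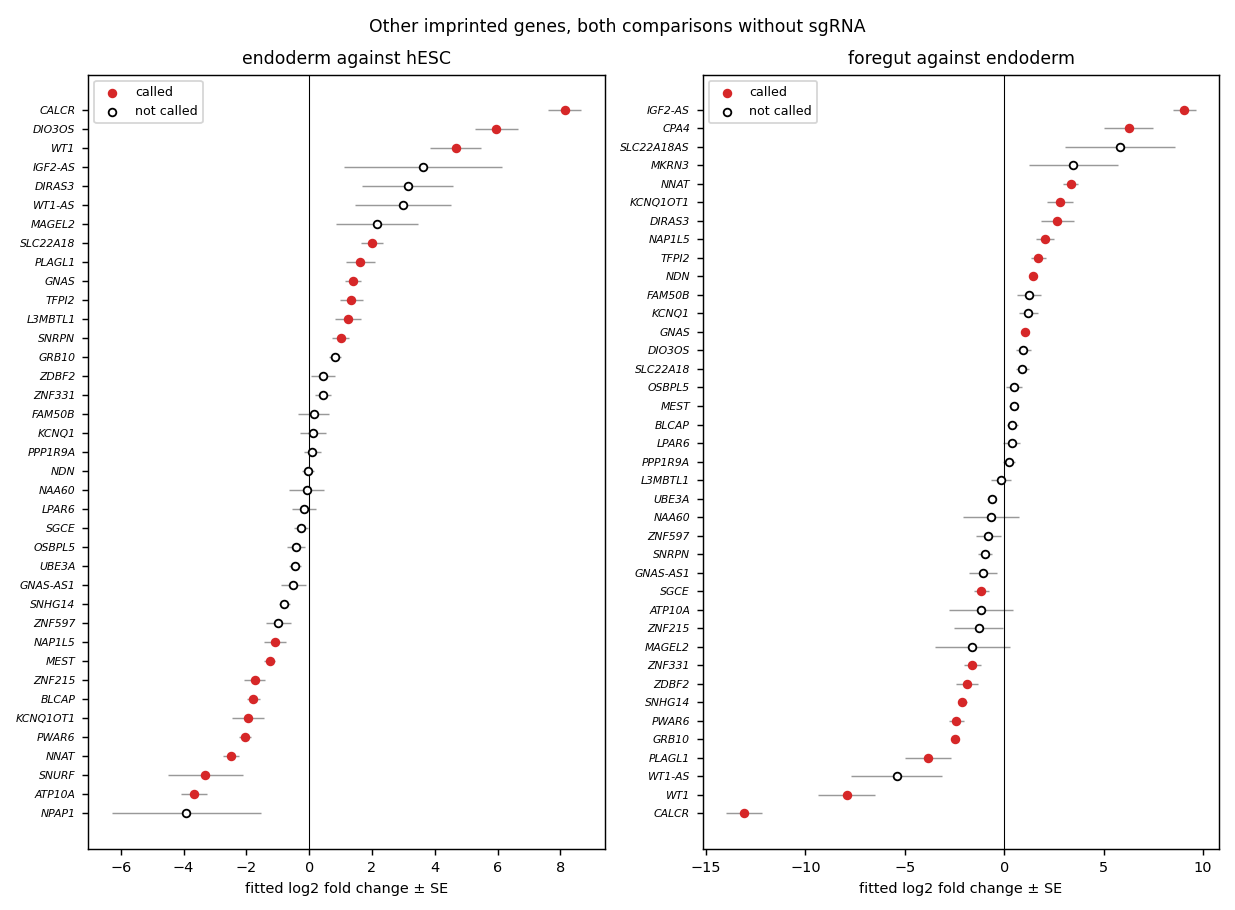
Fitted log2 fold changes with their SE for the other imprinted genes tested, for control endoderm against hESC (left) and control foregut against control endoderm (right), in order of size, with genes called in red. In each panel 9 rise and 9 fall, and CALCR, WT1 and others at 0 in a group have a fitted value that depends on the prior count.

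Genes that act with the members were followed by list, and each count below is to be set against the 26% of all genes tested that were called between control endoderm and hESC (2957 higher and 2448 lower) and the 29% called between control foregut and control endoderm (3018 higher and 3214 lower). Of 6 thyroid hormone genes tested between control endoderm and hESC, 4 fell and none rose. Among those that fell were SLC16A10, a transporter of amino acids and thyroid hormone (13.6 to 1.31 CPM; -3.35 ± 0.29, adjusted p = 3.1e-07), the receptor gene THRB (2.85 to 0.518 CPM; -2.39 ± 0.43, adjusted p = 0.000381), and CRYM, which binds the hormone in the cell (-2.18 ± 0.29, adjusted p = 2.47e-05). Into foregut 5 of 8 rose and 1 fell. TTR, the hormone carrier of plasma, and DIO1, the hepatic deiodinase (23.3 and 18.9 CPM), were at 0 in control endoderm, and CRYM rose by 3.32 ± 0.37 (adjusted p = 0.000203). CRYM also stood apart between the sgRNA arms, at 0.765 to 1.43 CPM with and 2.04 to 2.95 CPM without in endoderm, and 9.54 and 5.90 CPM against 31.1 and 16.1 CPM in foregut, uncalled in each (adjusted p = 0.58 and 0.218).

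Of 13 genes of the insulin-like growth factor axis tested between control endoderm and hESC, 4 rose and 1 fell, or 5 called against 26% of all genes. The binding protein gene IGFBP5 rose from 1.71 to 38.4 CPM (4.51 ± 0.33, adjusted p = 5.1e-08), IGFBP6 and IGFBP2 rose by 1.66 ± 0.30 and 1.64 ± 0.28 (adjusted p = 0.000407 and 0.000273), and IGFBP3 fell from 5.90 to 0.297 CPM (-4.21 ± 0.44, adjusted p = 2.47e-06). Into foregut 7 rose and 2 fell, against 29%. IGFBP3 (0.297 to 94.7 CPM; 8.24 ± 0.42, adjusted p = 4.9e-06), IGF1 (0.0780 to 10.1 CPM; 6.81 ± 0.65, adjusted p = 8.96e-05) and IGFBP6 (9.99 to 747 CPM; 6.22 ± 0.29, adjusted p = 2.93e-06) rose furthest. The receptor genes IGF2R, which clears IGF2 and fell from 144 to 40.9 CPM (-1.81 ± 0.24, adjusted p = 0.000543), and IGF1R (-1.22 ± 0.25, adjusted p = 0.00489) were the ones that fell. IGF1R was not called without control endoderm replicate 1 (-0.995). Among 6 CDK inhibitor genes, the relatives of CDKN1C, 3 rose and none fell into endoderm, of which CDKN2D rose by 1.89 ± 0.35 (adjusted p = 0.000462). CDKN1A, another of the 3, held 15.2, 4.24 and 5.25 CPM in control endoderm against 3.33 and 3.50 CPM in hESC, and its log2 difference of 1.30 ± 0.44 (adjusted p = 0.0294, edgeR) was not called without control endoderm replicate 1, the highest (0.50), nor without either hESC library (1.26 and 1.33). Into foregut CDKN2B rose from 0.174 to 6.44 CPM (5.18 ± 0.49, adjusted p = 8.45e-05), and CDKN2C and CDKN1B fell, neither of them called without control endoderm replicate 1, nor CDKN1B without control foregut replicate 2. Of 6 factors that maintain imprints, DPPA3 fell into endoderm (4.57 to 0.136 CPM; -4.96 ± 0.44, adjusted p = 4.26e-07), CTCF (88.2 to 37.6 CPM; -1.23 ± 0.27, adjusted p = 0.00671) and NLRP7 fell into foregut, and ZFP57 and TRIM28 were called in neither step. Without control foregut replicate 2 CTCF was not called (-0.975), nor was NLRP7 without any 1 of the control endoderm libraries. Between the sgRNA arms edgeR called 0 genes of these lists in endoderm or foregut. At an unadjusted p under 0.05 there was 1 thyroid hormone gene in each stage, and in foregut 2 genes of the growth factor axis and 1 CDK inhibitor gene.

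In gastruloid nuclei the members were counted by another assay, in nuclear RNA and without scaling to length. Their order and levels there are therefore not set against those of the bulk libraries. Of 3646 nuclei deposited, 3422 were kept, with a median of 16302 UMIs (unique molecular identifiers) and 5205 genes, and 7 of the 10 genes were in the table, where every gene is seen in at least 34 nuclei. MEG3, RTL1 and PEG3 are not in it. PEG10 held 101 UMI CPM, its UMIs scaled by the total UMIs of the nuclei (95% Poisson interval 98.6 to 104) and was seen in 69.0% of nuclei, CDKN1C 53.3 (51.5 to 55.2; 46.1%) and PHLDA2 37.2 (35.7 to 38.8; 31.5%). DLK1 held 6.38 (5.75 to 7.06; 7.71%), DIO3 1.37 (1.09 to 1.71; 1.81%), H19 1.19 (0.926 to 1.5; 1.75%) and IGF2 0.916 (0.688 to 1.20; 1.46%). Thinned to 5000 UMIs per nucleus in the 3197 nuclei that had them, the shares were 37.3% for PEG10, 21.1% for CDKN1C, 13.0% for PHLDA2, 2.56% for DLK1 and 0.5% for DIO3. This is 1 sample, so no test was made, and intervals cover counting error only. MEG8, without a read in bulk by the other assay, held 73 UMIs in 68 nuclei. DIO3OS held 57 UMIs in 50 nuclei, 7 of them among the 62 nuclei with DIO3. KCNQ1OT1 held 112 UMI CPM and SGCE 106.

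The nuclei fell into 10 clusters when the members and the other imprinted genes were left out of the clustering. In cluster 0, of 503 nuclei, all 6 axial mesoderm markers (TBXT, NOTO, SHH, CHRD, FOXA2 and NOG) stood more than 2-fold above the other nuclei, and it is called axial mesoderm-like. PKD1L1 and DAND5, genes of node cells, were among its leading genes. CDKN1C held 120 UMI CPM there (114 to 126) and PHLDA2 109 (103 to 115), against 27.0 to 50.6 and 13.2 to 29.1 in clusters 2 to 9. The thinned share of nuclei with PHLDA2 was 36.2% in cluster 0 and 5.24% in cluster 8. DIO3 held 45 of its 81 UMIs in cluster 0 (4.03 UMI CPM, 2.94 to 5.39) and 15 in cluster 4, led by PCDH8 and RIPPLY1 (2.60, 1.45 to 4.28). It held none in cluster 8, where 3 UMIs would be 0.576 UMI CPM. In cluster 1 DIO3 held 4 UMIs, all in 1 nucleus. IGF2 and H19 held 2.60 (1.74 to 3.73) and 2.33 (1.52 to 3.41) UMI CPM in cluster 0, and the H19 interval overlapped that of cluster 8 (1.92, 0.920 to 3.53). Both stood higher in cluster 1, of 34 nuclei, on few UMIs. IGF2 held 6.27 UMI CPM there (2.04 to 14.6, 5 UMIs), and H19 8.78 (3.53 to 18.1, 7 UMIs). The IGF2 interval overlapped that of cluster 0 and the H19 interval lay above it. PEG10 went the other way, at 44.7 (40.9 to 48.8) in cluster 0, its lowest, and 141 (134 to 149) in cluster 3, called presomitic-like from TBX6, MSGN1 and DLL3 among its leading genes.

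DLK1 stood out in cluster 1, of 34 nuclei, with 72.8 UMI CPM (55.2 to 94.0) against 2.11 to 8.24 in the others. That level rests on 58 UMIs in 41.2% of these nuclei (17.6% when thinned). Among all kept nuclei 1 held as many as 22 DLK1 UMIs, which the interval does not allow for. XACT, APELA, SMOC2 and FN1 were among the leading genes of cluster 1, and it rests on too few listed markers for a name (CHRD, FOXA2 and SOX2 stood more than 2-fold above the rest). CDKN1C and PHLDA2 held 96.6 and 107 UMI CPM there. Of 70 predicted doublets, which stayed in, 26 were in cluster 0 and none in cluster 1. Free RNA was not measured, and CDKN1C, PHLDA2 and PEG10 held UMIs in every cluster.

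**Figure D4:**
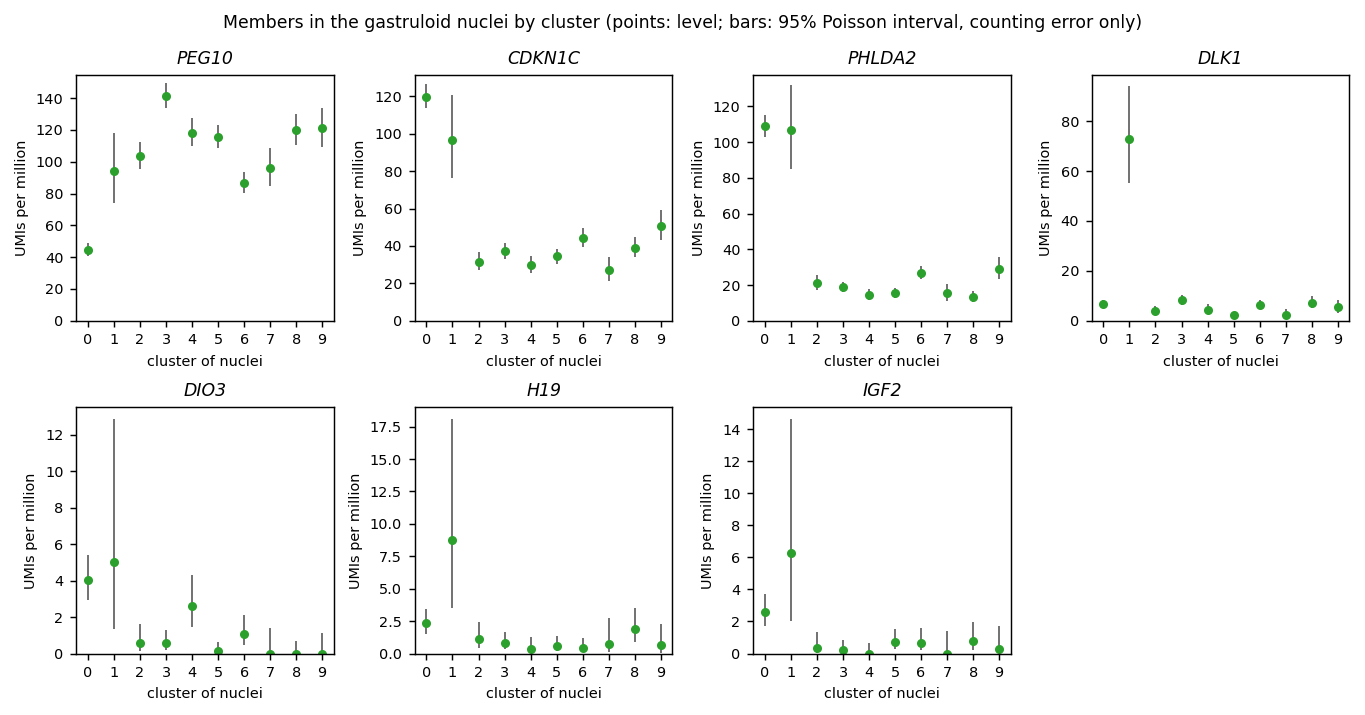
Level of the 7 genes held in the gastruloid nuclei by cluster, in UMI CPM on linear axes, with points for the level and bars for the 95% Poisson interval, which covers counting error only. CDKN1C and PHLDA2 are highest in clusters 0 and 1, DLK1 in cluster 1, and PEG10 is lowest in cluster 0.

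Accessible peaks of the same nuclei, on GRCh38, lay over the promoters of DIO3, DLK1, PEG10, CDKN1C and PHLDA2, and 69.7% of 19117 protein-coding genes had such a peak. The DIO3 peak (chr14:101560960-101561850) covered the whole promoter printed above. The nearest peak was 100 bases from the IGF2 promoter, 318 from RTL1, 1168 from MEG3, 58407 from H19 and 202049 from PEG3. These distances hold for 1 annotated start per gene, and peaks at other starts were not looked for. Of the promoters with 20 to 29 CpG, as DIO3 has, 88.6% had a peak, of those with 10 to 19, as MEG3 has, 65.9%, and of those with 0 to 9, as RTL1 and H19 have, 25%. Peaks were called on the pooled nuclei of 1 preparation, and 81 lay between DLK1 and DIO3, or 9.68 per 100 kb against 7.16 on chromosome 14. The longest stretch without a peak there was 165.9 kb, beyond RTL1 (chr14:100907081-101072997).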

How the data were processed

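Bulk libraries were made with a stranded mRNA kit per the study's methods. Bulk reads were mapped by the authors with HISAT2 to GRCh37 (hg19), and those with a single place were assigned by featureCounts to a joint gene and TE annotation. What was deposited are unnormalized counts for 63677 gene IDs (55665 of them in the GENCODE v44 annotation lifted to GRCh37) and for 4570939 TE integrants. Whether counting used strand is not given in the sources used here. For gastruloids the deposited values are UMI counts per gene and nucleus and peak positions on GRCh38, made with cellranger-arc 2.0.0 (version per the submitters' processing notes).

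The gene counts went into the quasi-likelihood test of edgeR 4.0.16 with TMM scaling in R 4.3.3, each comparison on its own groups, for genes with at least 3 reads in 1 library, called at an adjusted p (Benjamini–Hochberg over all genes) under 0.05 and a fold over 2. TE integrants overlapping exons were left out and used the TMM factors of the genes. DESeq2 1.42.0, limma 3.58.1, other scalings and filters, and each library left out were alternatives. CPM printed use TMM factors over the 12 libraries, and RPKM the merged exons. All tests were 2-sided, and the fit was tested on simulated data.

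Nuclei with at least 1000 UMIs, 200 genes and at most 25% mitochondrial UMIs were clustered with scanpy 1.11.5 and leidenalg 0.10.2 on 2000 variable genes. The members and all gene lists were chosen with earlier results of these data known. Besides the members, genes of their domains are named, and per list and comparison the 3 largest rises and falls among genes called with a mean of at least 1 CPM in a group and groups that do not overlap. Other named genes (NANOG, HAND1, FOXF1, COL1A1 and the like) were chosen after their values were seen. Replicate numbers were not taken to pair the libraries. The values of 1 gene of the thyroid hormone list are not reported here.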

Additional observations from a re-analysis of the deposited data

Results flagged for a closer look

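MEST, a paternally expressed gene, differed between the sgRNA arms by -0.16 in endoderm and 0.50 in foregut on the log2 scale, and in each stage the arms did not overlap, in opposite directions. Endoderm held 95 to 101 CPM with the sgRNA against 102 to 121 CPM without, and foregut 183 and 254 CPM against 177 and 132 CPM. The difference between the stages was 0.65 ± 0.31 (SE) and did not pass (adjusted p = 0.625, edgeR interaction). LPAR6, a receptor gene for lysophosphatidic acid, differed by -0.84 in endoderm (0.593 to 1.68 CPM against 1.81 to 2.79 CPM) and by 1.30 in foregut (4.17 and 9.74 CPM against 2.53 and 3.08 CPM). Its difference between the stages was 2.14 ± 0.82 and did not pass either (adjusted p = 0.519, edgeR interaction). Of 39 other imprinted genes, 0 were called in that interaction, 6 had an unadjusted p under 0.05, and DESeq2 and limma also called 0. MEST and LPAR6 were picked because their sgRNA differences had opposite signs in the 2 stages. The share of all genes with arms apart is not given here, so nothing is read from the lack of overlap.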

How the results depend on the processing

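Of 179 counts of called genes or integrants recomputed under alternatives, 171 stayed within 1.5 times the first count and 8 moved, and 0 of 16 called member differences turned over 203 alternatives. Lost calls are not counted as turned, and the H19 fall into endoderm lost its call as given above. The largest move was 2.3 in log2, for DIO3 in control foregut against hESC. The other imprinted genes called between control endoderm and hESC were 18, and 11 with all 12 libraries in 1 fit. Leaving out single libraries gave 10 (without hESC replicate 1) to 17. Between foregut arms they were 0, and 3 at an unadjusted p. Leaving out single libraries gave 0 to 5 (without sgRNA replicate 1). Between control foregut and hESC they were 16, and 14 to 26 with libraries left out (26 without control foregut replicate 1), and the members called were 5, and 5 to 8. In the difference of the sgRNA effect between stages they were 0, and 0 to 3 (3 without foregut sgRNA replicate 1). Integrants called between DLK1 and DIO3 were 5, and 7 with at least 10 reads in total. The cause of these moves was not tested.

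Deviations of same-numbered libraries correlated by -0.041 to 0.007 between endoderm arms, -0.217 between foregut arms, 0.174 and 0.144 between control foregut and control endoderm, 0.033 and 0.045 between control endoderm and hESC, and -0.041 between control foregut and hESC. The numbers were to be taken as pairs only with 3 pairs all above 0.1, and they were not so taken. Only the endoderm arms had 3 pairs, and these did not reach it. The other comparisons had 2 pairs each, so the rule could not decide there. In control foregut against control endoderm both pairs were above 0.1. Where both groups had 2 libraries, the 2 values are equal by construction. With the replicate block the other imprinted genes called were 14 of 38 into endoderm, 16 from endoderm into foregut, 17 in foregut against hESC and 0 between arms. With crossed numbers, tried after seeing the data, 1 was called between foregut arms. No count moved by over 1.5 times with the uncrossed block. In nuclei, 13 of 28 member values moved with the filter or thinning. Genes under about 1 CPM, MEG3 among them, rest on few reads.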
